A study of Gossypium hirsutum with 9 samples.

Results

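The TFT genes of upland cotton (Gossypium hirsutum) are described here in elongating fibres, the long hairs that grow from epidermal cells of the seed. TFT is the symbol of the tomato 14-3-3 proteins. The genes were taken from the deposited table by their symbol, TFT followed by a number, which gave 10 of the 70478 genes listed: 4 named TFT6, 4 named TFT7 and 2 named TFT4. One of them, Gh_A01G0110 (TFT6), was chosen by its difference in level between the groups. It had the largest rise of all tested genes on the log2 scale used below. Its values are therefore given as a description with no test, and the other 9 were chosen by symbol alone. The 6 genes with the symbols of rice 14-3-3 proteins, 4 GF14B and 2 GF14D, were set beside them, which makes 16 genes of the family.

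Plants in which GhWRKY16, a gene for a WRKY transcription factor, was silenced by RNA interference (RNAi) were compared with wild-type plants (WT). RNA was taken from fibres at 9 days post anthesis, and all plants grew in the field. The labels list 9 samples, 6 RNAi and 3 WT. RNAi replicates 2 to 6 and WT replicates 1 to 3 were used. No FPKM values were at hand for RNAi replicate 1, so it was not analysed here. The sources used here do not give the promoter of the construct, the number of independent transgenic lines or the cultivar. They do not say either that each replicate was its own plant, and the spread behind the p-values may be partly or wholly technical.

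As background, 14-3-3 proteins are dimers that bind phosphorylated serine or threonine motifs of other proteins and so alter the activity, the stability or the place in the cell of their partners. In plants their partners include the plasma membrane proton pump, which drives the uptake of solutes, the enzymes nitrate reductase and sucrose phosphate synthase, and the brassinosteroid transcription factor BZR1, which they hold in the cytoplasm. Cotton 14-3-3 proteins have been tied to fibre initiation and elongation through brassinosteroid signalling. Upland cotton is an allotetraploid, so most genes exist as an A-subgenome and a D-subgenome copy. The letter and number after Gh in an identifier give the subgenome and chromosome.

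Levels were deposited as FPKM, fragments scaled to gene length and to the size of the library, which allows levels of genes of different length to be compared. The number of reads is unknown. Relative to WT replicate 1, the depth read from the spacing of low values was 0.366 in RNAi replicate 4, the shallowest library, and 1.11 to 2.19 in the other RNAi libraries, against 1 to 1.76 in WT. Genes with symbols of elongating fibre markers (70 genes, among them E6 and expansins) summed to 52164 to 63598 FPKM in RNAi and 59290 to 61311 FPKM in WT. Symbols of green-tissue markers (38 genes) summed to 108 to 129 FPKM in RNAi and 108 to 122 FPKM in WT. Secondary-wall cellulose synthases (16 genes, 5 of them listed at 0 in every library) summed to 127 FPKM in RNAi replicate 5 and to 2.95 to 22.3 FPKM in the other RNAi libraries, against 3.38 to 8.38 FPKM in WT. The silenced gene is not identified by name in the table, so its reduction was not measured. In whole-fibre RNA, fewer cells of a type and less RNA per cell cannot be told apart.

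Gh_A01G0110 (TFT6) was low in WT fibres and abundant in RNAi fibres. It had 147, 157, 164, 157 and 164 FPKM in RNAi replicates 2 to 6, against 2.19, 2.43 and 1.59 FPKM in WT replicates 1 to 3. The lowest RNAi library stood 60.7-fold above the highest WT library, and the groups did not overlap. The mean was 158 ± 6.87 FPKM in RNAi (SD, n = 5) and 2.07 ± 0.434 FPKM in WT (SD, n = 3), a 76.3-fold ratio of means and a difference of 156 FPKM. On the log2(FPKM + 1) scale used for all fits, which understates changes of low genes, the difference was 5.70.

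Placed among the 34051 genes that had at least 1 FPKM in at least 3 libraries, its mean level lay above 96.5% of them in RNAi and above 20.5% of them in WT. The 5 RNAi libraries lay close together, with a coefficient of variation of 4.36%. Among 1328 genes with a mean of 100 to 250 FPKM in RNAi, the median coefficient of variation was 11.9%, and 65 of these genes (4.89%) varied less than Gh_A01G0110. RNAi replicate 4, the shallowest library, and RNAi replicate 5, the one with the high secondary-wall sum, had 164 and 157 FPKM of Gh_A01G0110, inside the range of the others. The gene with the next largest difference on the log2 scale was Gh_D06G0237 (KLHL30), at 73.1 to 85.5 FPKM in RNAi and at 9.45, 0 and 0 FPKM in WT replicates 1 to 3. In all, 4 genes differed by at least 10-fold upward on that scale.

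**Figure D1:**
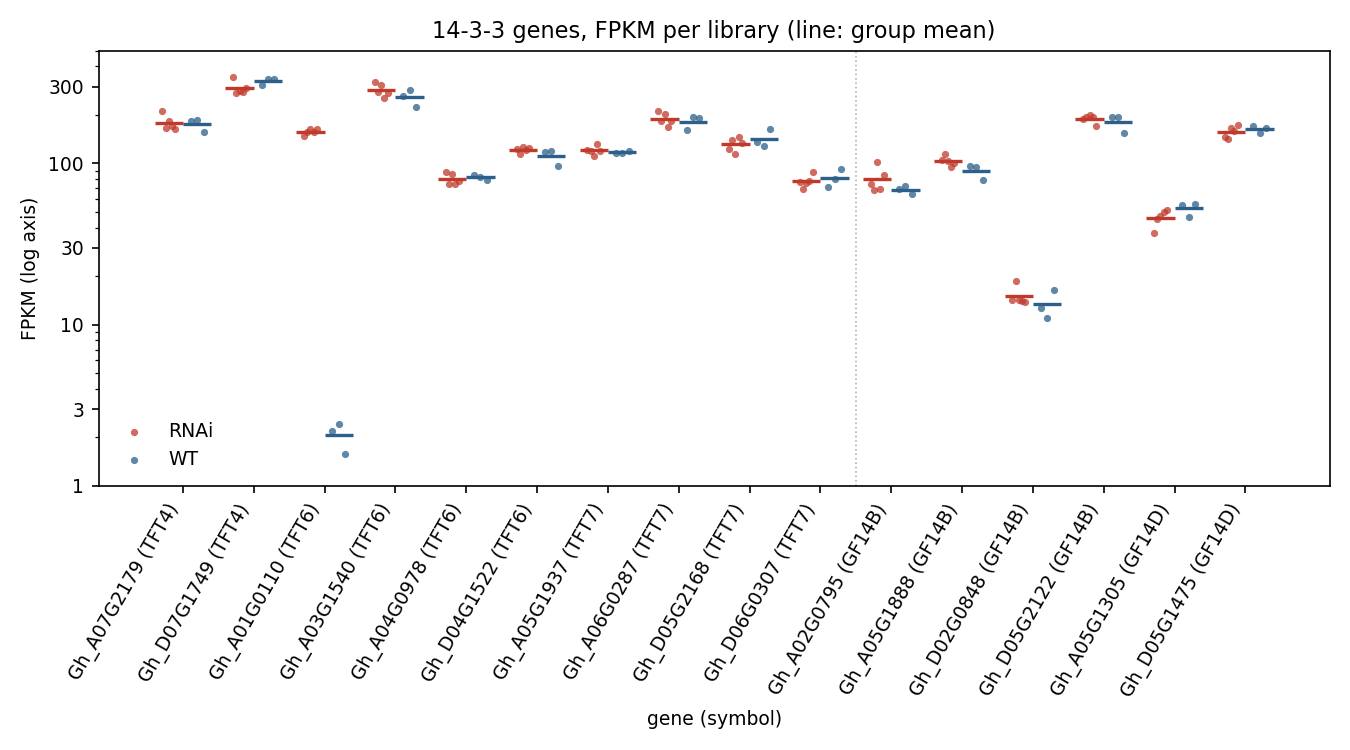
FPKM of the 16 genes of the 14-3-3 family on a log axis, with 1 point per library and a line at the group mean (RNAi red, left; WT blue, right; TFT symbols left of the dotted line, GF14 symbols right of it). Gh_A01G0110 stands at 147 to 164 FPKM in RNAi and 1.59 to 2.43 FPKM in WT, while the points of both groups overlap for each of the other 15 genes.

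The other 9 TFT genes were all abundant in both groups, and none of them passed the test. In limma, fitted to all 34051 genes with Benjamini-Hochberg adjustment, 57 genes had an adjusted p under 0.05 in either direction (0.167%). Of the 15 other 14-3-3 genes, all of which were tested, limma called 0, and 0 had an unadjusted p under 0.05, against 5.86% of all tested genes. Their groups did not overlap in 0 of 15, against 4.07% of all tested genes. Their log2 differences (RNAi minus WT) ran from -0.20 to 0.20 with a median of 0.04, beside a median of -0.02 over all tested genes. They were positive in 9 and negative in 6, and this split was the same with the libraries rescaled. The 95% intervals of the 15 differences reached from -0.49 at the lowest to 0.51 at the highest; changes within an interval are not excluded for its gene.

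Among the TFT6 genes, Gh_A03G1540 (TFT6) was the most abundant. It had 318, 277, 306, 255 and 275 FPKM in RNAi replicates 2 to 6, against 263, 286 and 224 FPKM in WT replicates 1 to 3. These ranges overlapped, and its log2 difference was 0.15 ± 0.11 (SE; limma adjusted p = 0.882). Gh_D04G1522 (TFT6) had 123, 115, 126, 122 and 124 FPKM in RNAi and 118, 119 and 96.6 FPKM in WT, where replicate 3 alone lay below all RNAi libraries. Its log2 difference was 0.14 ± 0.10 (SE; limma adjusted p = 0.882). Gh_A04G0978 (TFT6) had 89.0, 74.8, 86.0, 74.2 and 77.8 FPKM in RNAi and 84.6, 82.4 and 78.9 FPKM in WT. The WT values lay inside the RNAi range. So each TFT6 gene other than Gh_A01G0110 stood at 74.2 FPKM or more in every library of both groups.

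The TFT4 genes included the most abundant 14-3-3 gene of the table in both groups. Gh_D07G1749 (TFT4) had 342, 273, 283, 276 and 293 FPKM in RNAi, against 309, 335 and 332 FPKM in WT. RNAi replicate 2 was above every WT library and the other 4 RNAi libraries were below every one. Its log2 difference was -0.15 ± 0.10 (SE; limma adjusted p = 0.877). Gh_A07G2179 (TFT4) had 211, 166, 185, 170 and 165 FPKM in RNAi and 183, 185 and 157 FPKM in WT, again with RNAi replicate 2 the highest.

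The 4 TFT7 genes included, in Gh_D06G0307, the lowest TFT gene in RNAi and the lowest but for Gh_A01G0110 in WT. TFT7 of tomato is known to bind a MAP kinase kinase kinase in programmed cell death. Gh_A06G0287 (TFT7) averaged 190 ± 16.8 FPKM in RNAi (SD, n = 5) and 182 ± 18.0 FPKM in WT (SD, n = 3). Gh_D05G2168 (TFT7) averaged 132 ± 12.9 FPKM in RNAi and 143 ± 17.7 FPKM in WT. Gh_A05G1937 (TFT7), the steadiest gene of the family in WT, stood at 112 to 133 FPKM in RNAi and 116 to 120 FPKM in WT. Gh_D06G0307 (TFT7) stood at 69.7 to 89.0 FPKM in RNAi and 71.2 to 92.5 FPKM in WT. The groups overlapped for each of the 4, and the limma adjusted p was at least 0.903 for each.

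None of the 6 GF14 genes passed the test. The 2 most abundant were Gh_D05G2122 (GF14B), at 172 to 200 FPKM in RNAi and 155 to 194 FPKM in WT, and Gh_D05G1475 (GF14D), at 142 to 173 FPKM in RNAi and 155 to 171 FPKM in WT. The limma adjusted p was 0.922 for Gh_D05G2122 and 0.932 for Gh_D05G1475. The lowest p of the family outside Gh_A01G0110 belonged to Gh_A05G1888 (GF14B), at 94.6 to 115 FPKM in RNAi and 79.0 to 95.8 FPKM in WT. Its log2 difference was 0.20 ± 0.11 (SE; limma adjusted p = 0.864). The least abundant in RNAi was Gh_D02G0848 (GF14B), at 14.3, 18.7, 14.3, 14.1 and 13.8 FPKM in RNAi and 12.6, 11.0 and 16.5 FPKM in WT. A further 38 genes carry the symbol GRF with a number, which names both Arabidopsis 14-3-3 proteins and growth-regulating transcription factors, and which of the 2 is meant was not settled. Their summed level was 34.2 to 42.4 FPKM in RNAi and 32.6 to 44.8 FPKM in WT, the highest mean of a single gene over all 8 libraries was 7.50 FPKM, and limma called 0 of the 11 that could be tested (0 at an unadjusted p under 0.05).

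**Figure D2:**
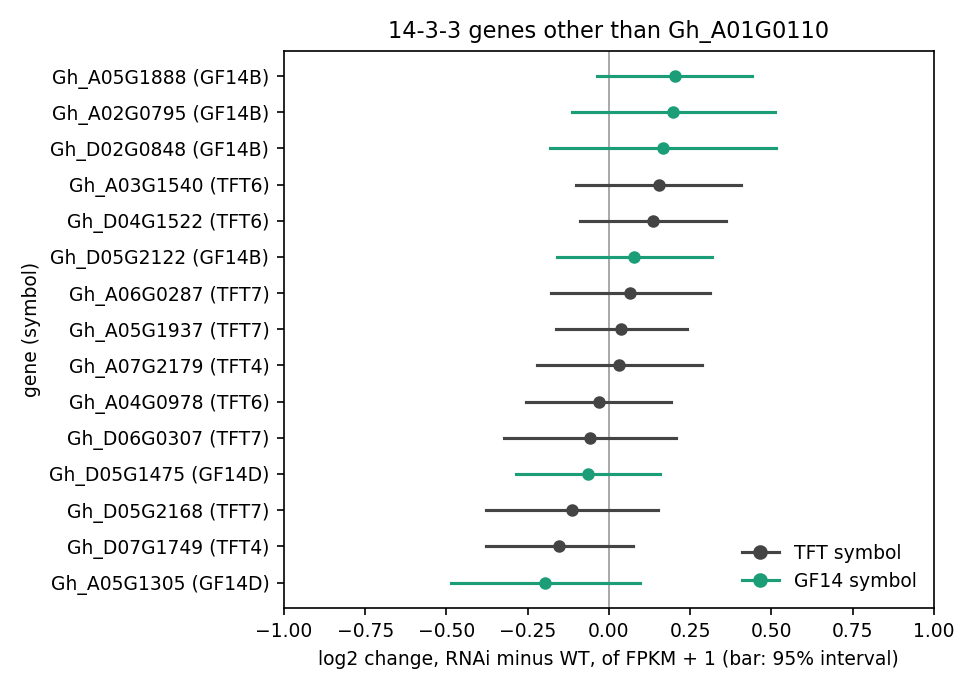
Log2 difference (RNAi minus WT, log2 of FPKM + 1) of the 15 other 14-3-3 genes with 95% intervals from limma, TFT symbols in grey and GF14 symbols in green. The estimates lie between -0.20 and 0.20, and every interval includes 0.

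In order of level, Gh_A01G0110 was the 5th of the 10 TFT genes in RNAi and the 10th in WT. Among all 16 genes it was the 6th in RNAi, below Gh_A07G2179 (TFT4), whose lowest library (165 FPKM) was just above the highest of Gh_A01G0110 (164 FPKM). It overlapped with the gene ranked after it, Gh_D05G1475 (GF14D). In WT it was the 16th, and its range of 1.59 to 2.43 FPKM lay apart from that of the 15th, Gh_D02G0848 (GF14B), at 11.0 to 16.5 FPKM. The genes ranked 1 to 3 were Gh_D07G1749 (TFT4), Gh_A03G1540 (TFT6) and Gh_A06G0287 (TFT7) in both groups. In RNAi the ranges of the first pair overlapped, and in WT those 3 were separate from one another.

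The summed level of the 10 TFT genes was 1763, 1575, 1652, 1580 and 1626 FPKM in RNAi replicates 2 to 6, against 1444, 1529 and 1456 FPKM in WT replicates 1 to 3. The groups did not overlap. The mean was 1639 ± 76.3 FPKM in RNAi (SD, n = 5) and 1476 ± 45.9 FPKM in WT (SD, n = 3), which is 163 FPKM or 11.0% higher in RNAi. Without Gh_A01G0110 the sums overlapped, at 1419 to 1616 FPKM in RNAi and 1442 to 1526 FPKM in WT, and the means differed by 7.23 FPKM. Over all 16 genes the sum was 2158 to 2328 FPKM in RNAi and 1992 to 2102 FPKM in WT, 9.04% higher in RNAi on average. Without Gh_A01G0110 it was 1.43% higher. No test was made of these sums, since they contain the gene chosen by its difference.

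Gh_A01G0110 held 8.35% to 10.1% of the TFT sum in RNAi and 0.109% to 0.159% in WT. Of the 4 TFT6 genes alone it held 24.5% ± 1.68 in RNAi (SD, n = 5) and 0.453% ± 0.0517 in WT (SD, n = 3). The TFT6 sum was 609 to 681 FPKM in RNAi and 401 to 491 FPKM in WT, a mean difference of 193 FPKM, of which Gh_A01G0110 made up 156 FPKM and the other 3 genes 37.4 FPKM. The sums of the other symbols overlapped between groups, at 503 to 532 FPKM in RNAi and 485 to 565 FPKM in WT for TFT7 and at 439 to 553 FPKM in RNAi and 489 to 520 FPKM in WT for TFT4.

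**Figure D3:**
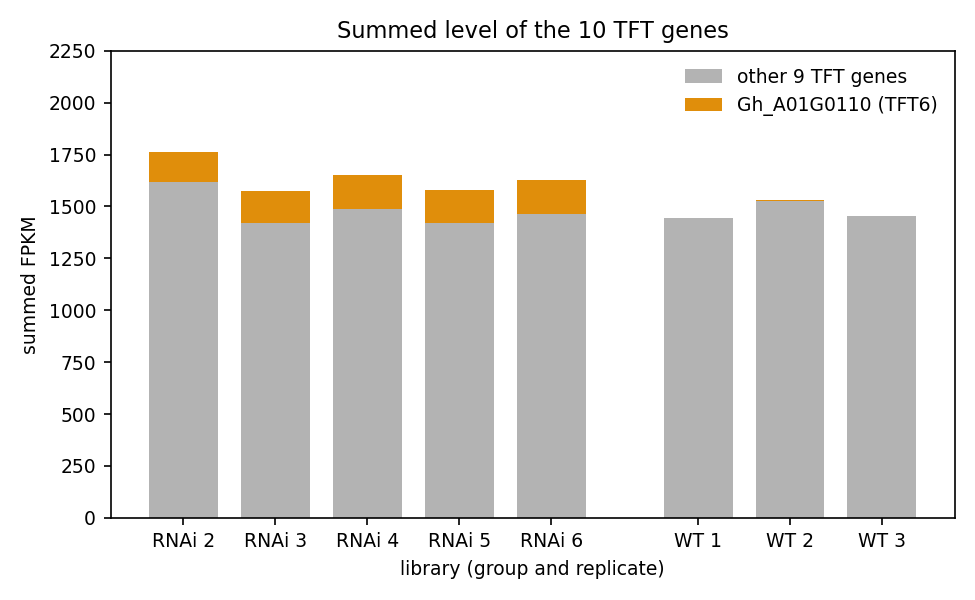
Summed FPKM of the 10 TFT genes in each library, with the 9 other genes in grey and Gh_A01G0110 in orange. The orange part is 147 to 164 FPKM in RNAi and 1.59 to 2.43 FPKM in WT, and the grey parts of the groups overlap.

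For 7 pairs in the family, an A gene and a D gene carry the same symbol and the same chromosome number. The share of the A gene in the sum of its pair overlapped between the groups in each of the 7. It averaged 39.7% in RNAi and 42.5% in WT for Gh_A04G0978 and Gh_D04G1522 (TFT6), and 37.9% in RNAi and 35.0% in WT for Gh_A07G2179 and Gh_D07G1749 (TFT4). The highest share was that of Gh_A02G0795 and Gh_D02G0848 (GF14B), 83.9% in RNAi and 83.7% in WT. Where copies are near-identical their reads may have been split between them, which makes single values of such pairs uncertain.

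No gene on D01 carries a TFT symbol, so Gh_A01G0110 could not be paired this way. The numbering of symbols does not place a counterpart either. Up to At1g33475, at Gh_A01G0108 and Gh_D01G0104, symbols that occur once in each stretch follow the same order on A01 and D01. Beyond Gh_A01G0110 the order runs the other way, with GAUT3 at Gh_A01G0111 and Gh_D01G0119 and At3g43660 at Gh_A01G0112 and Gh_D01G0118.

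**Figure D4:**
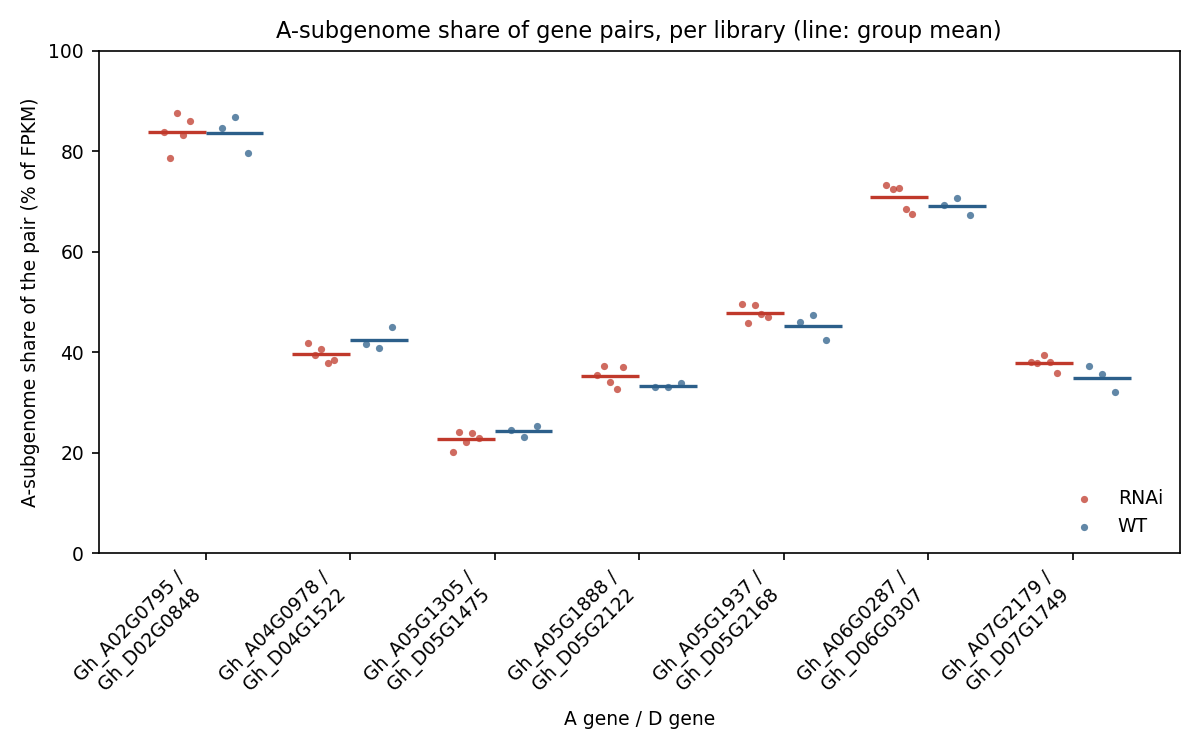
Share of the A-subgenome gene in the summed FPKM of the 7 pairs set by symbol and chromosome number, 1 point per library and a line at the group mean (RNAi red, left; WT blue, right). The groups overlap in each pair, and the mean shares run from 22.7% in RNAi and 24.3% in WT for the GF14D pair to 83.9% in RNAi and 83.7% in WT for the GF14B pair on chromosomes A02 and D02.

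The genes within 2 identifier numbers of Gh_A01G0110 did not pass the test, or were too low for it. Gh_A01G0108 (At1g33475) had 10.4 to 13.0 FPKM in RNAi and 11.3 to 13.5 FPKM in WT, and Gh_A01G0109, without a symbol, 1.69 to 2.36 FPKM in RNAi and 1.85 to 3.55 FPKM in WT. On the other side, Gh_A01G0111 (GAUT3, the symbol of a galacturonosyltransferase-like gene of pectin synthesis) had 3.12, 1.51, 4.54, 1.48 and 2.66 FPKM in RNAi and 1.89, 1.89 and 0.836 FPKM in WT, with overlapping groups (limma adjusted p = 0.874). Gh_A01G0112 (At3g43660) was listed at 0 in all libraries but WT replicate 3, at 0.176 FPKM.

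Between Gh_A01G0060 and Gh_A01G0160, 52 of 101 genes could be tested. Apart from Gh_A01G0110, limma called 1 of them, against 1 of 1038 tested genes on the rest of A01 and 0.167% of all tested genes. It was Gh_A01G0095 (MRS2-3, the symbol of a magnesium transporter), 15 identifier numbers away, which fell. It had 0.980, 1.11, 3.22, 0.954 and 1.59 FPKM in RNAi, against 21.8, 24.1 and 22.2 FPKM in WT (limma adjusted p = 8.3e-04, and 3.5e-05 to 0.0127 over 17 alternative settings). The gene with the same symbol on D01, Gh_D01G0089 (MRS2-3), had 39.2 to 41.9 FPKM in RNAi and 37.9 to 46.7 FPKM in WT. The median log2 difference of the 52 genes was -0.11, beside -0.02 over all tested genes. The groups did not overlap in 5 of the 52, Gh_A01G0110 included, against 4.07% of all tested genes.

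**Figure D5:**
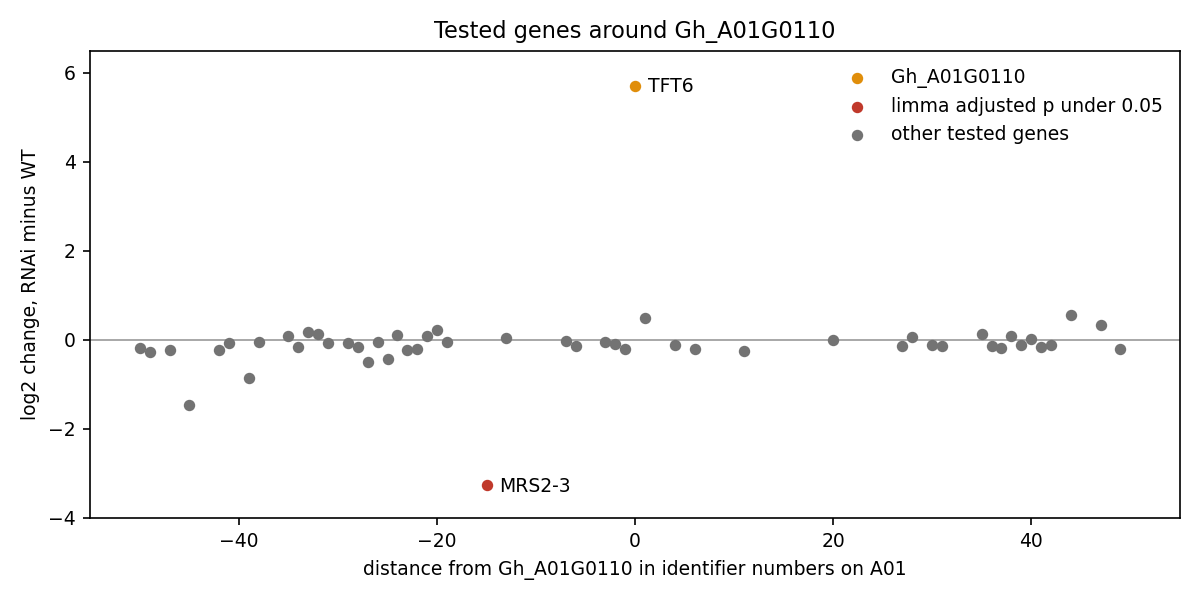
Log2 difference (RNAi minus WT, log2 of FPKM + 1) of the 52 tested genes within 50 identifier numbers of Gh_A01G0110 on A01, against their distance in identifier numbers. Gh_A01G0110 (orange, 5.70) and Gh_A01G0095 (MRS2-3, red, -3.27) are the points farthest from 0, and no other gene plotted passed the test.

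The genes whose pattern over the 8 libraries was most like that of Gh_A01G0110 were listed by Pearson's r of log2(FPKM + 1). Since its groups lie far apart, r is high for any gene whose groups lie apart and whose spread is small, and it is given as a description. The 5 highest were Gh_D11G1362 without a symbol (r = 0.989), Gh_A12G0139 (DRP5A, r = 0.987), Gh_D09G1844 (SAP7, r = 0.984), Gh_D11G2510 (TUBB2, r = 0.984) and Gh_A11G1434 (CPX1, r = 0.984). Gh_A12G0139 (DRP5A), the symbol of a dynamin-related protein of the cell plate, stood at 2.65 to 3.97 FPKM in RNAi and 0 to 0.251 FPKM in WT. Gh_D09G1844 (SAP7), of the stress-associated zinc finger proteins, stood at 64.2 to 77.6 FPKM in RNAi and 34.2 to 37.0 FPKM in WT. Gh_D11G2510 (TUBB2), a beta-tubulin, stood at 18.1 to 23.9 FPKM in RNAi and 8.20 to 9.19 FPKM in WT. The widest ratio of means among the 5 was 24.1, that of Gh_A12G0139, against 76.3 for Gh_A01G0110.

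The 5 most opposite genes were Gh_A04G0376 without a symbol (r = -0.997), Gh_A04G0830 (GSTU16, r = -0.995), Gh_D09G2060 without a symbol (r = -0.992), Gh_A05G3470 (NQR, r = -0.991) and Gh_A11G1809 without a symbol (r = -0.990). Gh_A04G0376 stood at 0 to 0.263 FPKM in RNAi and 15.0 to 22.4 FPKM in WT. Gh_A04G0830 (GSTU16), a glutathione S-transferase symbol, was listed at 0 in all 5 RNAi libraries and stood at 1.32 to 1.67 FPKM in WT. Gh_A05G3470 (NQR), a quinone reductase symbol, stood at 0 to 0.602 FPKM in RNAi and 10.3 to 13.0 FPKM in WT. The other 15 genes of the 14-3-3 family had r between -0.61 and 0.70 with Gh_A01G0110.

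Partners and regulators of 14-3-3 proteins were looked at by 11 lists of symbols, and 2 of their genes passed the test. Over all lists 222 genes were tested, of which limma called 1 higher and 1 lower, against 0.167% of all tested genes in either direction. The groups did not overlap in 11 of the 222, against 4.07% of all tested genes. The median log2 difference was 0.03 (all tested genes -0.02), with 123 positive and 99 negative. Of all tested genes 53.6% were negative, and the directions given for each list stand beside that share without a test. No gene carried a nitrate reductase symbol, and none of 16 genes with FT or FD symbols was high enough to test.

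Genes with proton pump symbols, whose membrane was not checked, were positive in 11 of 14 tested. Their median log2 difference was 0.15, and limma called 0 of them (1 at an unadjusted p under 0.05). The most abundant, Gh_A09G0208 (AHA11), had 90.9, 95.2, 64.7, 104 and 71.1 FPKM in RNAi and 78.2, 75.5 and 68.7 FPKM in WT. RNAi libraries lay both above and below WT. Gh_D10G0475 (AHA10) had 76.4 to 88.0 FPKM in RNAi and 73.3 to 81.9 FPKM in WT. Genes listed as sucrose phosphate synthases by their symbol alone were positive in 6 of 9 (median 0.07, limma called 0, and 0 at an unadjusted p under 0.05). Among them Gh_D13G2477 (SPS1) had 25.2 to 34.6 FPKM in RNAi and 21.6 to 29.6 FPKM in WT, and Gh_D08G2634 (SPS1) 11.8 to 15.3 FPKM in RNAi and 13.4 to 13.98 FPKM in WT. Of 6 genes with symbols of F2KP, which makes the glycolytic regulator fructose-2,6-bisphosphate, 4 could be tested, and all 4 were negative (median -0.26; limma called 0, and 0 at an unadjusted p under 0.05). The most abundant, Gh_A03G0932 (FKFBP), had 3.29 to 7.94 FPKM in RNAi and 5.37 to 5.82 FPKM in WT, and Gh_D03G1338 (FKFBP) had 2.60 to 5.01 FPKM in RNAi and 4.30 to 5.57 FPKM in WT.

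Brassinosteroid signalling genes were positive in 28 and negative in 28 of 56, with a median of 0.00, and limma called 0 (3 at an unadjusted p under 0.05). The symbols ASK, which lead this list by level, name both shaggy-like kinases and SKP1-like ubiquitin ligase parts, so their place in it is uncertain. Gh_D12G0407 (ASK10) had 74.7 to 147 FPKM in RNAi and 73.4 to 95.9 FPKM in WT, and Gh_A11G3270 (ASK1) had 89.4 to 107 FPKM in RNAi and 106 to 164 FPKM in WT (limma adjusted p = 0.844). Calcium-dependent kinases, which phosphorylate 14-3-3 binding sites, were positive in 30 and negative in 28 of 58 (limma called 0, and 2 at an unadjusted p under 0.05). Of these Gh_D10G2029 (CPK1) had 29.8, 23.8, 32.4, 24.2 and 24.2 FPKM in RNAi, against 36.8, 54.0 and 52.1 FPKM in WT. Its groups did not overlap, but its log2 difference of -0.80 ± 0.16 (SE) did not pass (limma adjusted p = 0.187, and 0.0558 to 0.818 over 17 alternatives). Gh_D01G2360 (CPK9) had 35.9 to 40.6 FPKM in RNAi and 37.0 to 41.0 FPKM in WT.

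Two-pore potassium channels were positive in 9 of 16 (limma called 0, and 1 at an unadjusted p under 0.05), led by Gh_D11G1092 (TPK5) at 11.2 to 15.2 FPKM in RNAi and 10.7 to 15.5 FPKM in WT and Gh_A09G0068 (TPK3) at 4.80 to 12.8 FPKM in RNAi and 5.85 to 10.4 FPKM in WT. Of 12 genes with phototropin symbols 4 could be tested, and all 4 were negative (median -0.16; limma called 0, and 0 at an unadjusted p under 0.05). Gh_A03G0296 (PHOT1) had 15.0, 15.2, 21.3, 14.3 and 14.3 FPKM in RNAi and 18.4, 20.2 and 15.96 FPKM in WT. Gh_A12G0099 (PHOT2) had 4.37 to 4.80 FPKM in RNAi and 4.98 to 5.74 FPKM in WT (limma adjusted p = 0.877). MAP kinase kinase kinases were positive in 34 of 51 (median 0.05; limma called 0, and 2 at an unadjusted p under 0.05), led by Gh_D12G0440 (EDR1) at 55.8 to 73.0 FPKM in RNAi and 55.4 to 65.2 FPKM in WT and Gh_A12G0439 (EDR1) at 48.5 to 65.9 FPKM in RNAi and 48.7 to 57.8 FPKM in WT.

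The 2 called genes were both type-one protein phosphatases, of which 10 were tested, against 0.167% called over all tested genes. The groups did not overlap in 3 of the 10, against 4.07% of all tested genes. The list was chosen with earlier results of these data known, so these counts are a description. Gh_D10G2504 (TOPP4) rose to 13.8 ± 1.01 FPKM in RNAi (SD, n = 5), against 7.68 ± 0.303 FPKM in WT (SD, n = 3), with a log2 difference of 0.77 ± 0.11 (SE; limma adjusted p = 0.0328). That call was lost when any 1 of the 8 libraries was left out (limma adjusted p = 0.0510 to 0.190). Gh_A03G0379 (TOPP2) fell to 0.228 FPKM or less in RNAi, where 3 libraries were listed at 0, against 1.42, 3.54 and 3.38 FPKM in WT (limma adjusted p = 0.0162). Its call and its lack of overlap are both among the counts above. It reached 1 FPKM, the level needed for testing, in the 3 WT libraries only, so both are a description. It lost its call without RNAi replicate 2, 3, 5 or 6 or WT replicate 2 or 3 (limma adjusted p of up to 0.130), and with pseudocounts of 0.1 and 0.01 (limma adjusted p = 0.0735 and 0.750). The most abundant members did not pass, with Gh_D08G2209 (TOPP9) at 29.2 to 40.0 FPKM in RNAi and 34.5 to 49.6 FPKM in WT and Gh_Sca005250G02 (TOPP9) at 28.0 to 37.8 FPKM in RNAi and 30.9 to 39.3 FPKM in WT.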

How the data were processed

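RNA sequencing values of cotton fibre were used from 5 RNAi and 3 WT libraries. The authors deposited them as FPKM per gene, 1 column per library, and columns were matched to samples by group letters and replicate number. The submitters' processing notes list FastQC, HISAT2 and DESeq 1.10.1 but not what each was used for. Which genome build and read counter were used, and how reads matching several gene copies were treated, is not given in the sources used here. The reference table at hand (Gossypium_hirsutum_v2.1) shares 0 identifiers with the 70478 of the deposited table, and no coordinates or sequences are given. Symbols are those paired with identifiers in the table. The number of reads is unknown; relative depth is the most frequent ratio between libraries of values under 0.5 FPKM (tolerance 0.01 on the log2 scale).

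Genes at 1 FPKM or more in at least 3 libraries (34051) were tested for a difference in log2(FPKM + 1) by limma (version 3.58.1, R 4.3.3), with moderated variances that follow a trend in level, two-sided p-values and a Benjamini-Hochberg adjusted p under 0.05 as the threshold. The fit was tested on simulated data. The members, lists and tests were chosen with earlier results of these data known. Genes named were all TFT genes, the 2 most abundant and any called gene among the GF14 genes and in each list, the 5 most and least correlated with Gh_A01G0110, and its neighbours within 2 identifier numbers plus called genes within 50; the other GF14 genes, the D01 gene of MRS2-3 and KLHL30 were added after their values were seen. Alternatives were pseudocounts of 0.1 and 0.01, other filters and scalings, no trend, array weights, a replicate block and each library left out.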

Additional observations from a re-analysis of the deposited data

Results flagged for a closer look

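In the RNAi group 74 measures were searched for a library far from the other 4, by the gap to its nearest neighbour relative to the range (Dixon's limit 0.71 for 5 values). Chance flags about 1 in 20 such groups if values are independent and normally distributed, and 7 were found. Some of the 7 measures share genes, so their flags are not separate results. RNAi replicate 2 stood apart in 4 of the 7. It had the lowest share of Gh_A01G0110 in the TFT sum (8.35%, against 9.92% to 10.1% in the other RNAi libraries) and in the sum of all 14-3-3 genes (6.32%), the highest TFT4 sum (552.9 FPKM) and the highest Gh_A11G1809 (0.929 FPKM). Without RNAi replicate 2 the mean share in the TFT sum was 9.98% in RNAi, and with it 9.65%. RNAi replicate 4, the shallowest library, had the highest Gh_A01G0095 (MRS2-3) of its group, 3.22 FPKM, and the highest Gh_A03G0296 (PHOT1), 21.3 FPKM. RNAi replicate 3 had the highest Gh_D02G0848 (GF14B), 18.7 FPKM.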

How the results depend on the processing

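The log2 difference of Gh_A01G0110 was 5.70, and 6.21 and 6.27 with pseudocounts of 0.1 and 0.01; with single libraries left out it ran from 5.58 to 5.79. The difference in the TFT sum was 163 FPKM (132 to 189 with single libraries left out) and 7.23 FPKM without Gh_A01G0110; its mean share in RNAi was 9.65% of the TFT sum (9.54% to 9.98% with single RNAi libraries left out) and 7.08% of the sum over all 14-3-3 symbols. Of the other 15 genes limma called 0 in each of the 17 alternatives, with a lowest adjusted p of 0.360. Over all genes 27 were higher and 30 lower; these counts were 16 and 20 with a filter at 5 FPKM, 18 and 17 with a pseudocount of 0.01, 42 and 46 with array weights, and 14 to 26 and 18 to 32 with single libraries left out. Among the partner lists the 1 higher gene was lost when any single library was left out (0 in each). The 1 lower gene was lost (0) with pseudocounts of 0.1 and 0.01, and was too low to be tested with a filter at 5 FPKM. With single libraries left out the count of lower genes was 0 to 1. The replicate block gave 193 higher and 120 lower genes, 39 of them among the 57. It pairs only numbers 2 and 3, so its group difference and residual spread come from those libraries alone. Under it Gh_D10G2504 (TOPP4) was not called (limma adjusted p = 0.155), and the 1 higher partner gene was another, Gh_D06G0338 (TOPP4). The log2 difference of Gh_A01G0110 under it was 5.68. Deviations of same-numbered libraries correlated at 0.351 for number 2 and -0.093 for number 3, against -0.305 to 0.227 for libraries of unlike number. Only these 2 numbers occur in both groups, so whether the numbers pair the samples was not settled. The cause of these shifts was not tested. The unknown number of reads limits values near 1 FPKM most, those of Gh_A01G0110 in WT included.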

Other observations

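Gh_A01G0065 (Zadh2), 45 identifier numbers from Gh_A01G0110 and chosen after its values were seen, differed among the RNAi libraries. It had 1.63, 13.4, 8.70, 1.47 and 1.51 FPKM in RNAi replicates 2 to 6, against 13.4, 10.6 and 12.1 FPKM in WT replicates 1 to 3. Gh_A05G3949 (ABP19A, the symbol of an auxin-binding germin-like protein), also chosen after its values were seen, had 91.4, 1.105, 2.77, 87.1 and 103 FPKM in the same RNAi libraries, against 1.01, 0.431 and 0.458 FPKM in WT. Its ratio of means was 90.1, above the 76.3 of Gh_A01G0110, but its log2 difference was smaller (3.85, against 5.70). RNAi replicates 3 and 4 thus lay nearer to WT than RNAi replicates 2, 5 and 6 at both genes. RNAi replicate 4 was still below every WT library at Gh_A01G0065, and both were above every WT library at Gh_A05G3949. Gh_A01G0110 was at 147 to 164 FPKM in all 5 RNAi libraries. The D01 gene with the same symbol, Gh_D01G0065 (Zadh2), had 17.4 to 28.7 FPKM in RNAi and 18.2 to 23.7 FPKM in WT.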
